A study of Arabidopsis thaliana with 12 samples.

Results

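Wild-type Arabidopsis thaliana seedlings kept for 24 h at 4 °C were compared with seedlings of the same line sampled before cold, at 0 h. The comparison takes in the genes whose normalized read count was at least 10 in at least 2 of these 4 libraries, which held for 20103 of the 24616 genes in the deposited table. The cold-treated plants were wild type (Col) after 24 h of cold and their controls were wild type at 0 h. All plants were 14 days old and had been grown on half-strength MS medium in long days at 22 °C. The labelled tissue is the seedling, with no organ separated in the labels. The series also holds wild type after 3 h of cold and the mutant line cbfs-1, named for the CBF genes, after 0 h, 3 h and 24 h. Each of the 6 groups has 2 libraries, 12 in all, and the 4 libraries of wild type at 24 h and 0 h carry no transgene or chemical treatment in their labels.

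Arabidopsis acclimates to cold: plants that have spent some time at low, non-freezing temperature survive freezing that kills plants taken from warmth. The best known route runs through the CBF (DREB1) transcription factors, which are made within hours of a temperature drop and bind the CRT/DRE element in the promoters of cold-regulated (COR) genes. COR products include hydrophilic proteins that protect membranes and chloroplasts, and the enzymes that make raffinose and galactinol. The circadian clock, the sugar state of the leaf and the machinery that makes ribosomes are also known to respond to cold.

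The 24 h libraries held 18727639 and 19729206 recovered reads, and the 0 h libraries 16858218 and 16868905. Levels below are normalized read counts, that is, reads divided by the size factor of the library, and they are given for library 1 and then library 2 of each time. Changes are differences of log2(value + 1), 24 h minus 0 h, which understate the change of low genes, and adjusted p-values come from limma with Benjamini-Hochberg adjustment over 20666 genes tested in all 12 libraries. Replicate libraries correlated across genes at 0.989 at 24 h and 0.984 at 0 h on a log2 scale, where single genes do not count as independent replicates, and 2.08% and 2.84% of genes differed by more than 2-fold between the replicates of 24 h and 0 h. Of the 150 genes that were at least 8-fold higher at 24 h, 141 were higher in library 1 than in library 2 of the 24 h group, with a median log2 difference of -0.57 (library 2 minus library 1). At 0 h, 37 of 38 antenna and photosystem genes were higher in library 1, with a median difference of -0.40. Whether the 2 libraries of a group stem from separate cultures is not stated in the labels. The p-values therefore reflect library-to-library spread, which may be technical. The clock time of sampling is likewise unstated. If sampling followed 1 common start of cold, 24 h matches 0 h in time of day and 3 h does not. No group in the series was kept warm for 24 h, so cold and 24 h of further growth cannot be told apart. Fewer cells of a type and less RNA per cell cannot be told apart in such bulk samples.

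The changes at 24 h of cold reached a large part of the measured genes in both directions. Of the 20103 genes, 5262 were higher at 24 h and 4935 were lower at an adjusted p below 0.05, beside 25.7% higher and 24.3% lower over all genes tested, and 9906 did not pass. The median change over all 20103 genes was 0.00 on the log2 scale. Most called changes were small: 3467 of the higher and 3088 of the lower genes moved by less than 2-fold, and the median standard error was 0.159. At least 2-fold changes numbered 1795 higher and 1847 lower, beside 8.89% and 9.35% over all genes tested. The far ends were uneven, with 28 genes at least 32-fold higher and 10 genes at least 32-fold lower. In all 10197 called genes both libraries of one time stood above both of the other, but this was also so in 15395 of the 20103 genes and in 76.2% of the genes tested.

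**Figure D1:**
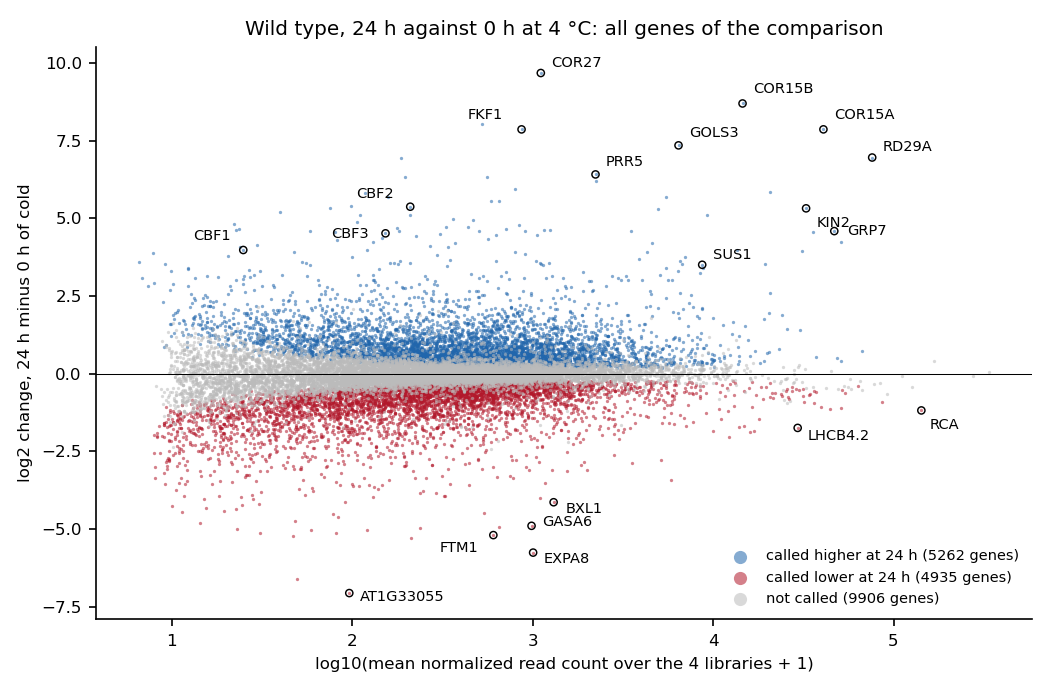
Each point is 1 of 20103 genes; the horizontal axis is log10 of its mean normalized read count over the 4 wild-type libraries plus 1, and the vertical axis its log2 change, 24 h minus 0 h. Blue points (5262) were called higher and red points (4935) lower at 24 h, and the COR genes stand at the upper right, where both the level and the change were large.

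Nearly all genes were measured at both times. Values of at least 10 in all 4 libraries were found for 18949 genes, while 187 genes reached 10 in both 24 h libraries and neither 0 h library, and 372 did so in both 0 h libraries and neither 24 h library. These last genes entered through 1 time only, so the rule itself fixed their direction. Among the genes named below, CBF1, COR27, DREB2C, HSFA6B, UGT78D3 and MYB122 entered through 24 h only. AT1G33055, AGP22, HSFA6A, CASP4 and CASP5 entered through 0 h only, and these names are examples. At the edge of the rule, AT1G10800 was just inside with a second highest value of 10.6, and AT1G23160 just outside with 9.83.

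The CBF genes were above their 0 h level at 24 h but far below their 3 h level. CBF2 stood at 569 and 239 at 24 h, against 24.0 and 2.17 at 0 h (log2 change 5.38, SE 0.95, adjusted p = 0.0014). CBF3 stood at 404 and 180.3 at 24 h, against 15.3 and 7.59 at 0 h (log2 change 4.52, SE 0.36, adjusted p = 2.3e-05), and CBF1 at 69.8 and 22.4 at 24 h, against 2.18 and 1.08 at 0 h (log2 change 3.98, SE 0.55, adjusted p = 0.00039). All 3 were thus higher at 24 h in both libraries, and in each of them 24 h library 1 was well above library 2. CBF2 had stood at 5093 and 6769 at 3 h, CBF3 at 6133 and 7126 at 3 h and CBF1 at 1129 and 2023 at 3 h. The 24 h level differed from the 3 h level by -3.99 (adjusted p = 0.0082) for CBF2, -4.61 (adjusted p = 3.2e-05) for CBF3 and -5.21 (adjusted p = 0.00013) for CBF1 on the log2 scale (24 h minus 3 h, limma). The 3 genes are near-identical neighbours on chromosome 4, and the handling of reads that match several of them is unstated. CBF4, a relative known for its response to drought, reached only 5.29 and 1.95 at 24 h and had no reads at 0 h, so it is not among the 20103 genes.

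Genes of cold-regulated proteins took a larger share of reads at 24 h than at 0 h. In a list of 21 such genes, mostly dehydrins, LEA proteins and COR proteins, 17 rose and 1 fell, with a median change of 3.55, beside 5262 and 4935 of 20103 genes and a median of 0.00 overall. Together they took 3.91% and 2.53% of all reads at 24 h, against 0.162% and 0.156% at 0 h. RD29A (AT5G52310), a hydrophilic protein induced by cold and drought, had the largest gain of reads of any gene: it stood at 194697 and 107678 at 24 h, against 1146 and 1184 at 0 h (log2 change 6.96, SE 0.31, adjusted p = 1.3e-06). COR15A, whose product protects chloroplast membranes during freezing, stood at 91302 and 71501 at 24 h, against 443 and 270.2 at 0 h (log2 change 7.86, SE 0.38, adjusted p = 1.9e-06). Its neighbour COR15B stood at 30702 and 27389 at 24 h, against 97.2 and 48.8 at 0 h (log2 change 8.70, SE 0.37, adjusted p = 1.1e-06). In all 3 genes both 24 h libraries stood far above both 0 h libraries, and the gap between the 24 h libraries was small beside that change. The acidic dehydrins COR47 and ERD10 followed, COR47 with 123817 and 69766 at 24 h, against 4858 and 5068 at 0 h (log2 change 4.23, SE 0.25, adjusted p = 5.4e-06) and ERD10 with 89800 and 47474 at 24 h, against 2836 and 2735 at 0 h (log2 change 4.55, SE 0.27, adjusted p = 5.9e-06). LTI30, a basic dehydrin, stood at 53009 and 28308 at 24 h, against 574 and 784 at 0 h (log2 change 5.85, SE 0.27, adjusted p = 1.5e-06). COR413-PM1, a multispanning membrane protein, had 43142 and 28498 at 24 h, against 3130 and 2952 at 0 h (log2 change 3.53, SE 0.22, adjusted p = 6.6e-06), whereas its relative COR413-PM2 was the single member that fell and was named for that, with 629 and 522 at 24 h, against 747 and 770.3 at 0 h (log2 change -0.40, SE 0.10, adjusted p = 0.008).

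Every one of the 21 genes was higher in library 1 than in library 2 of the 24 h group, with a median difference of -0.83 between the libraries, and the part of this gap in the group's change was not tested. LEA4-5, a late embryogenesis protein, showed the widest gap of the list with 1449 and 233 at 24 h, against 64.4 and 58.6 at 0 h (log2 change 3.22, SE 0.64, adjusted p = 0.0029). RD29B is known to respond to abscisic acid and drought more than to cold, and it did not pass, with 913 and 179 at 24 h, against 190 and 51.0 at 0 h (log2 change 2.03, SE 0.86, adjusted p = 0.076). RAB18, a dehydrin known to depend on abscisic acid, did not pass either, with 306 and 163 at 24 h, against 732 and 183 at 0 h (log2 change -0.71, adjusted p = 0.39). In both genes the 2 times overlapped, and library 1 stood far above library 2 within each time.

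Several of these genes lie side by side in the genome (coordinates in TAIR10.1). COR15B and COR15A are 7 bases apart on chromosome 2 and changed by 8.70 and 7.86. COR47 and ERD10 are 1029 bases apart on chromosome 1 and changed by 4.23 and 4.55. KIN1 and KIN2, which encode small proteins resembling antifreeze proteins, are 892 bases apart on chromosome 5: KIN1 stood at 8898 and 7230 at 24 h, against 603 and 462 at 0 h (log2 change 3.92), and KIN2 at 69314 and 58559 at 24 h, against 1502 and 1688 at 0 h (log2 change 5.32, SE 0.11, adjusted p = 2.5e-08). KIN2 had the smallest adjusted p of any gene, and its replicates lay close together at both times. RD29B and RD29A are 1185 bases apart on chromosome 5 and were unlike each other, with changes of 2.03, which did not pass, and 6.96. KIN1 was chosen for this description after its values were seen. Of the 150 genes at least 8-fold higher, 12 (8%) lay next to another such gene. COR15B overlaps the annotated gene AT2G42520 on the opposite strand by 468 bases, and whether counting used strand is unstated.

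Measured per transcript length, several cold-regulated genes stood among the highest genes at 24 h. As TPM, a measure scaled by transcript length, KIN2 ranked 6 among all genes at 24 h, against 797 at 0 h, with means of 6976 TPM at 24 h and 185 TPM at 0 h. GRP7, a glycine-rich RNA-binding protein, ranked 7 at 24 h, against 535 at 0 h. RD29A ranked 9 at 24 h, against 4210 at 0 h, and COR15A 13 at 24 h, against 7653 at 0 h. ERD10, LTI30 and COR47 ranked 17, 18 and 20 at 24 h, against 1006, 2614 and 792 at 0 h. The antenna gene LHCB1.3 and the Rubisco small subunit gene RBCS1A held ranks 1 and 2 at both times, and 16 of the 25 highest genes at 24 h were also among the 25 highest at 0 h.

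**Figure D2:**
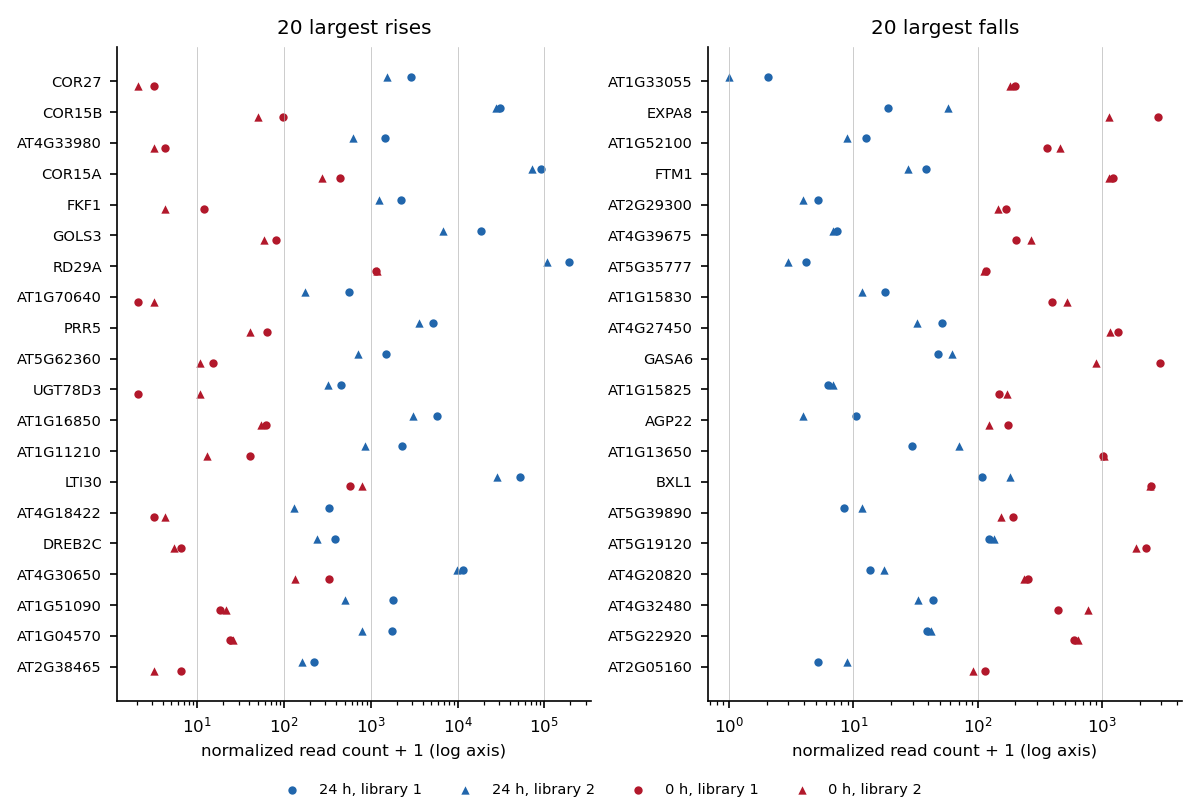
Normalized read count plus 1 (log axis) in each wild-type library for the 20 largest rises (left) and the 20 largest falls (right), with 24 h in blue and 0 h in red and a symbol for each library. The 24 h and 0 h points stand apart without overlap, as the choice of these genes required, and the 2 libraries of 1 time mostly lie closer together than the times.

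Several short motifs, the G-box and the ABRE core among them, were more frequent in the upstream DNA of the genes with the largest rises. The CRT/DRE core CCGAC, which CBF proteins bind, and the evening element AAAATATCT, bound by clock proteins, were searched on both strands in the 250 bases before the annotated gene start (RefSeq annotation of TAIR10.1) of 20009 genes. The core was found before 29.3% of the 150 genes at least 8-fold higher, before 14.2% of those 2- to 8-fold higher, and before 9.86% and 7.21% of those 2- to 8-fold and at least 8-fold lower, beside 12.9% of all genes of the comparison. The evening element was found before 13.3% and 6.995% of the 2 groups of higher genes and before 1.33% and 1.802% of the 2 groups of lower genes, beside 2.49% of all. Higher calls were more frequent, and lower calls less frequent, with more copies. Of the genes with 0, 1, 2 and at least 3 copies of CCGAC, 25.7%, 29.0%, 34.6% and 47.7% were higher at 24 h and 25.3%, 20.6%, 18.5% and 6.82% lower, the last over 44 genes. For the evening element, 25.8% with 0 copies, 45.7% with 1 copy and 55.6% with 2 copies were higher, and so were all 3 genes with at least 3 copies. The 58 genes with both motifs were higher in 58.6% of cases. The G-box CACGTG and the ABRE core ACGTGTC, which can overlap each other, were found before 18% and 10% of the genes at least 8-fold higher, beside 7.36% and 4.203% of all genes. These are matches of letters within 1 fixed window, with no test, and binding was not measured.

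**Figure D3:**
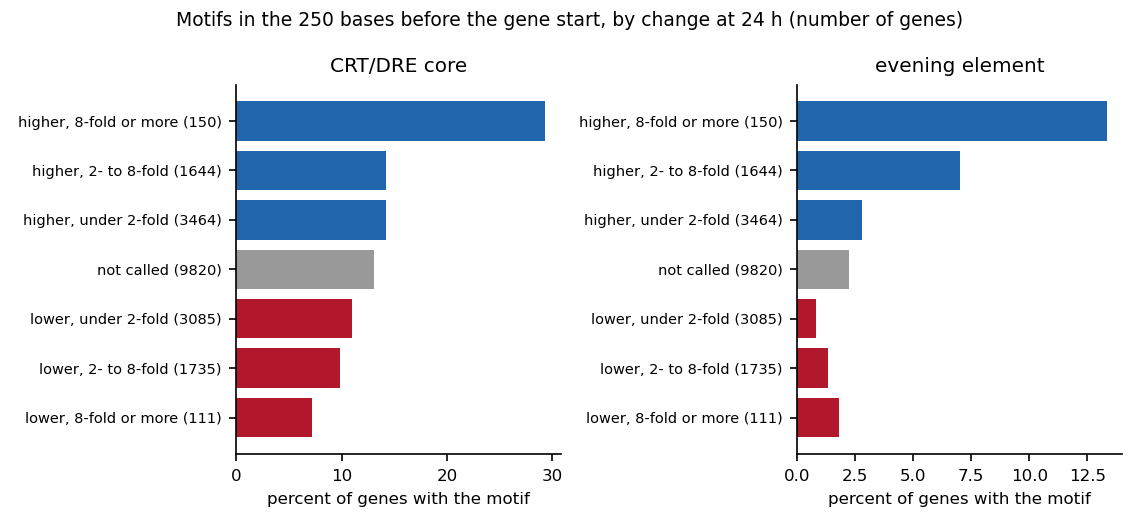
Percent of genes with at least 1 CRT/DRE core (left) or evening element (right) in the 250 bases before the gene start, by size and direction of the change at 24 h, with the number of genes in brackets. Both percentages are highest, at 29.3% and 13.3%, in the 150 genes that were at least 8-fold higher.

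Among the 20 largest rises, 11 had a CRT/DRE core in this window, 6 an evening element and 14 either, whereas 3 of the 20 largest falls had a core and 0 an evening element. The CBF genes had neither in this window, which says nothing about the factors that bind there. The windows of 7 genes are shown, each holding several copies or both motifs. Each gene is among the largest rises or the largest gains of reads. COR27, with 2 evening elements, and AT5G62360 and AT4G30650, with 1 of each motif, are also among the 20 largest rises and are not shown. Capitals mark the core (CCGAC, or GTCGG where it lies on the other strand) and the evening element (AAAATATCT or AGATATTTT), and each sequence is written 5′ to 3′ on the strand of its gene. The first 5 hold 2 or 3 cores, PRR5 holds 1 of each motif, and GRP7 holds only evening elements.
RD29A (chr5:21240467-21240716, plus strand): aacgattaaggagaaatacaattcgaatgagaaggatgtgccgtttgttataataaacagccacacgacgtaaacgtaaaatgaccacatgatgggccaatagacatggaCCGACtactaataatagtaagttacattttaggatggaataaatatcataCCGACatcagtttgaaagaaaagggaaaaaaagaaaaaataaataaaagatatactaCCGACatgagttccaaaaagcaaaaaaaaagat
LTI30 (chr3:18940393-18940642, plus strand): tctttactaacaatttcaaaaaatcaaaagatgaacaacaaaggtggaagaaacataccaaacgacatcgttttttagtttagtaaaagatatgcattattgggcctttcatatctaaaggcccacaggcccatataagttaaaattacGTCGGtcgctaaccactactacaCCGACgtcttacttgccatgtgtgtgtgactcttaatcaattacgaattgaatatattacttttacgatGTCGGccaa
COR15A (chr2:17712331-17712580, minus strand): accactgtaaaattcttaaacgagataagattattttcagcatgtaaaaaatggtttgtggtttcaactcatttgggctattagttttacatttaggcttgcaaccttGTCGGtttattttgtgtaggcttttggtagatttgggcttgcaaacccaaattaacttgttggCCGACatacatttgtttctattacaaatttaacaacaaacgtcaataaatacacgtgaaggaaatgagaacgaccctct
GOLS3 (chr1:3019389-3019638, plus strand): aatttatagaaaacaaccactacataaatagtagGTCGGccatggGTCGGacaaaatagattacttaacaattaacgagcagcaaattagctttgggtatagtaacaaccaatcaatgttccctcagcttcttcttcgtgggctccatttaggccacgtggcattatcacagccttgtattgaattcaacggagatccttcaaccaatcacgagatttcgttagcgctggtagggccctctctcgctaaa
AT1G51090 (chr1:18932516-18932765, plus strand): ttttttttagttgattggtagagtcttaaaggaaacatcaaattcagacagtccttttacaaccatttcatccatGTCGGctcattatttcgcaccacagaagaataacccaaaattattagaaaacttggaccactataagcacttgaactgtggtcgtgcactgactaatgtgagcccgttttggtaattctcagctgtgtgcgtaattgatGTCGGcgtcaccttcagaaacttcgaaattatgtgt
PRR5 (chr5:8358547-8358796, minus strand): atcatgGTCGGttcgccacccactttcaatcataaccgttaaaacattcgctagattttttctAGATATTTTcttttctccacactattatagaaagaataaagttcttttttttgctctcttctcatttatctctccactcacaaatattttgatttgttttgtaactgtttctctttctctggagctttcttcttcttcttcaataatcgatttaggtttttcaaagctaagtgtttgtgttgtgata
GRP7 (chr2:9266558-9266807, minus strand): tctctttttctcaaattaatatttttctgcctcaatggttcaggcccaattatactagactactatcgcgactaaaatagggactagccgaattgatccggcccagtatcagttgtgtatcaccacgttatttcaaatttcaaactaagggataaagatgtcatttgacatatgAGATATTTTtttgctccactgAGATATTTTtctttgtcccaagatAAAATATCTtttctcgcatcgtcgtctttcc
The 3 cores of RD29A start 140, 90 and 33 bases before the gene start. The evening elements of GRP7 start 76, 55 and 31 bases before it. COR27, which links cold to the clock, had the largest rise of all with 2899 and 1530 at 24 h, against 2.18 and 1.08 at 0 h (log2 change 9.68, SE 0.81, adjusted p = 2.9e-05). AT1G51090, annotated as a heavy metal transport and detoxification protein, stood at 1793 and 503 at 24 h, against 17.5 and 20.6 at 0 h (log2 change 5.57, SE 0.47, adjusted p = 3e-05). AT4G30650, a member of a low temperature and salt responsive protein family, holds 1 of each motif and stood at 11601 and 9812 at 24 h, against 326 and 132 at 0 h (log2 change 5.67, SE 0.49, adjusted p = 3.2e-05). The uncharacterized AT1G16850, with 1 core, stood at 5765 and 3098 at 24 h, against 61.2 and 53.2 at 0 h (log2 change 6.19, SE 0.31, adjusted p = 2.2e-06).

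Afternoon and evening genes of the circadian clock were high at 24 h. Of 14 such genes 11 rose and 0 fell, with a median change of 1.85. Over all genes of the comparison 26.2% were higher and 24.55% lower. PRR5, a repressor of morning genes, stood at 5249 and 3564 at 24 h, against 63.3 and 39.1 at 0 h (log2 change 6.41, SE 0.38, adjusted p = 5.9e-06). ELF4, a subunit of the evening complex, stood at 1218 and 934 at 24 h, against 42.6 and 64.0 at 0 h (log2 change 4.33, SE 0.54, adjusted p = 0.00023), and the pseudo-response regulator gene PRR3 at 233 and 256 at 24 h, against 21.8 and 6.51 at 0 h (log2 change 4.23, SE 0.76, adjusted p = 0.0017). TOC1, a core repressor of the clock, stood at 3853 and 3028 at 24 h, against 347 and 352 at 0 h (log2 change 3.29, SE 0.27, adjusted p = 2.7e-05), and GI, a regulator of photoperiod and clock, at 7242 and 4853 at 24 h, against 843 and 630.4 at 0 h (log2 change 3.02, SE 0.44, adjusted p = 0.00053). FKF1, a blue-light receptor that works with GI, rose by 7.86. All of these were higher in both 24 h libraries than in either 0 h library. The 11 morning genes did not move together: PRR7 and PRR9 rose by 1.42 and 0.98, LNK2 fell by 1.39, and CCA1 and LHY did not pass, with changes of 0.84 and -0.50. Flowering-time genes that act in the same photoperiod route were higher too. CO stood at 80.4 and 137 at 24 h, against 19.7 and 19.5 at 0 h (log2 change 2.37, SE 0.34, adjusted p = 0.0005), and its target FT at 30.7 and 43.9 at 24 h, against 18.6 and 7.59 at 0 h (log2 change 1.54, SE 0.43, adjusted p = 0.015). In the list of 31 flowering genes, 13 rose and 4 fell, and VIN3, which starts the silencing of FLC in long cold, rose by 3.74 and the FT relative TSF by 2.52. FLC itself was higher too, with 74.0 and 71.2 at 24 h, against 48.0 and 41.2 at 0 h (log2 change 0.69, SE 0.17, adjusted p = 0.009), and its relatives MAF3 and MAF2 rose by 1.19 and 0.52. SOC1, a floral integrator, rose by 1.84, while TEM2, a repressor of FT, fell, with 665 and 619 at 24 h, against 3413 and 1542 at 0 h.

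Of 22 genes for cold-responsive transcription factors, 11 rose and 0 fell, beside 26.2% and 24.55% over all genes of the comparison. Their median change was 0.94. RVE2, a MYB-like relative of the morning clock genes, stood at 2104 and 1935 at 24 h, against 92.8 and 326 at 0 h (log2 change 3.53, SE 0.55, adjusted p = 0.00072). RAP2.1, a repressor of the AP2 family that acts downstream of CBF, stood at 638 and 382 at 24 h, against 54.6 and 70.5 at 0 h (log2 change 2.97, SE 0.25, adjusted p = 2.9e-05). The zinc-finger genes ZAT12 and ZAT6 rose by 2.29 and 2.17, whereas ZAT10 did not pass, with 1.28 (adjusted p = 0.14). DREB2C, a relative of the CBF genes from the drought and heat branch of the family, was among the 20 largest rises with 383 and 236 at 24 h, against 5.46 and 4.34 at 0 h (log2 change 5.68, SE 0.69, adjusted p = 0.0002). Its relatives DREB2B and DREB2A rose by 4.305 and 2.79.

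In the heat shock list of 26 genes, 8 rose and 7 fell, and the rises numbered 5 without 0 h library 1 or without 24 h library 1. The factor genes HSFA6B and HSFA1E were higher at 24 h: HSFA6B stood at 188 and 117 at 24 h, against 4.37 and 6.51 at 0 h (log2 change 4.56, SE 0.59, adjusted p = 0.00028), and HSFA1E at 399 and 348 at 24 h, against 62.2 and 71.6 at 0 h (log2 change 2.46, SE 0.13, adjusted p = 3.2e-06). MBF1C, a coactivator of heat responses, was lower with 54.0 and 36.1 at 24 h, against 240.3 and 352 at 0 h (log2 change -2.69, SE 0.22, adjusted p = 2.6e-05), and HSFA6A was lower at very low levels, with 3.17 and 0 at 24 h, against 18.6 and 11.9 at 0 h. The chaperone HSP101 did not pass (log2 change -0.67, adjusted p = 0.05003). Over the heat shock list 30.8% were higher and 26.9% lower, near the 26.2% and 24.55% over all genes of the comparison.

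Several carbohydrate genes, of starch breakdown, sucrose synthesis and galactinol synthesis, were higher at 24 h. Of 19 starch breakdown genes 8 rose (42.1%) and 1 fell (5.26%), beside 26.2% and 24.55% over all genes of the comparison. Their share of reads was 0.573% and 0.418% at 24 h, against 0.128% and 0.124% at 0 h. Without 0 h library 2 or without 24 h library 1 the count of rises was 4. AT4G17090, a chloroplast beta-amylase that releases maltose, stood at 71168 and 44403 at 24 h, against 1994 and 6773 at 0 h (log2 change 3.94, SE 0.55, adjusted p = 0.00041). The glucan phosphorylase gene PHS2 stood at 10122 and 9383 at 24 h, against 2230 and 656 at 0 h (log2 change 3.01, SE 0.69, adjusted p = 0.0058). SEX1 and PWD encode the dikinases that phosphorylate starch before it can be degraded, and SEX1 stood at 12367 and 10072 at 24 h, against 2469 and 1377 at 0 h and PWD at 3905 and 3447 at 24 h, against 842 and 849.6 at 0 h, with changes of 2.597 and 2.12 (adjusted p = 0.0021 and 0.00025). At 0 h library 2 was the higher one for AT4G17090 and library 1 for PHS2, and in both genes each 0 h library stayed below those at 24 h. Of 13 starch synthesis genes 7 rose (53.85%) and 2 fell (15.4%). The largest change was that of the branching enzyme gene SBE2.1, with 3392 and 2527 at 24 h, against 831 and 756 at 0 h (log2 change 1.88, SE 0.27, adjusted p = 0.00047).

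In the raffinose branch 6 of 10 genes rose and 2 fell. GOLS3, a galactinol synthase known as a CBF target, stood at 18837 and 6747 at 24 h, against 80.8 and 57.5 at 0 h (log2 change 7.35, SE 0.42, adjusted p = 5.3e-06), and library 1 was far above library 2 at 24 h. GOLS4 rose by 2.53 and GOLS2, known for its response to drought, fell by 1.69. DIN10, a raffinose-family gene induced in darkness, fell by 2.02. Among 33 genes of sucrose metabolism and sugar transport, 13 rose and 7 fell. The sucrose synthase genes SUS1 and SUS4 went opposite ways: SUS1 stood at 20179 and 11898 at 24 h, against 1390 and 1335 at 0 h (log2 change 3.51, SE 0.21, adjusted p = 6.2e-06), and SUS4 at 154 and 79.0 at 24 h, against 1044 and 816 at 0 h (log2 change -3.05, SE 0.26, adjusted p = 3.1e-05). The sucrose-phosphate synthase gene SPS2F, of the enzyme that commits carbon to sucrose, stood at 3445 and 2233 at 24 h, against 448 and 677 at 0 h (log2 change 2.33, SE 0.25, adjusted p = 9.7e-05). The vacuolar invertase gene ATBETAFRUCT4, whose enzyme splits sucrose, was lower with 532 and 633 at 24 h, against 2613 and 2925 at 0 h (log2 change -2.25, SE 0.19, adjusted p = 2.7e-05). The hexose transporter gene STP13 rose by 3.096. The trehalose-phosphate list of 16 genes held 4 rises (25%) and 5 falls (31.25%), beside 26.2% and 24.55% over all genes of the comparison. In that list TPS8 fell, with 264 and 253 at 24 h, against 1682 and 1475 at 0 h, while TPS11 fell by 1.78.

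Genes known to rise in carbon shortage were lower at 24 h. In the list of 20 dark-induced and sugar-starvation genes, 11 fell and 2 rose, with a median change of -0.67. Over all genes of the comparison 24.55% were lower and 26.2% higher. DIN1 stood at 49.7 and 25.3 at 24 h, against 372 and 716 at 0 h (log2 change -3.82, SE 0.38, adjusted p = 6.9e-05), and the SnRK1 subunit gene AKINBETA1 at 184 and 202 at 24 h, against 578 and 468 at 0 h (log2 change -1.43, SE 0.15, adjusted p = 0.0001). DIN2, a beta-glucosidase, was one of the 2 that rose, with 147 and 62.4 at 24 h, against 45.9 and 15.2 at 0 h (log2 change 1.81, SE 0.56, adjusted p = 0.023). BXL1, a beta-xylosidase of the cell wall also known as sugar-responsive, was among the largest falls with 107 and 182 at 24 h, against 2487 and 2446 at 0 h (log2 change -4.13, SE 0.27, adjusted p = 9.7e-06). It had stood still higher at 3 h, at 6397 and 7299.

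Of 8 proline genes 2 rose (25%) and 1 fell (12.5%), with a median of -0.04, beside 26.2% and 24.55% over all genes of the comparison. P5CS2, which makes the proline precursor, stood at 17011 and 8878 at 24 h, against 2792 and 4029 at 0 h (log2 change 1.87, SE 0.34, adjusted p = 0.0018). Of 26 genes for desaturases and membrane lipids 10 rose and 7 fell. ADS2, a desaturase known to be induced by cold, stood at 13668 and 9382 at 24 h, against 1470 and 889 at 0 h (log2 change 3.31, SE 0.43, adjusted p = 0.00029), and its relative ADS1 was lower with 179.8 and 125 at 24 h, against 821 and 323 at 0 h (log2 change -1.78, SE 0.46, adjusted p = 0.0099). DGAT1, the enzyme of the last step of triacylglycerol synthesis, stood at 1260 and 1127 at 24 h, against 153 and 116 at 0 h (log2 change 3.15, SE 0.49, adjusted p = 0.00073). SQD1, of sulfolipid synthesis, and the galactolipid synthase gene MGD2 fell by 1.42 and 1.44. In the alternative respiration list 4 of 8 genes rose and 1 fell: the alternative oxidase gene AOX1A rose by 1.74 and the NAD(P)H dehydrogenase genes NDB2 and NDB4 by 1.83 and 3.504, while AOX1D fell by 1.81.

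Most genes in a list for making ribosomes rose. Of 29 nucleolar and ribosome biogenesis genes, 27 rose and 0 fell, with a median change of 1.19. FIB1 and MTR4 did not pass (log2 changes 0.43 and 0.13). Wider families from the annotation text held smaller shares of rises and some falls. Of 59 ribosome biogenesis genes by product name, 39 rose and 7 fell, with a median of 0.83. Of 124 genes annotated to ribosome biogenesis or ribosomal RNA processing, 67 rose and 4 fell, with a median of 0.34. Over all genes of the comparison 26.2% were higher and 24.55% lower. NUC1, the nucleolin that organizes ribosomal DNA, stood at 22803 and 21804 at 24 h, against 7104 and 8467 at 0 h (log2 change 1.52, SE 0.12, adjusted p = 2.6e-05). FIB2, a fibrillarin that methylates ribosomal RNA, stood at 5616 and 5965 at 24 h, against 1752 and 2213 at 0 h (log2 change 1.55, SE 0.19, adjusted p = 0.00021). SWA1, a nucleolar protein of 18S ribosomal RNA processing, stood at 1827 and 1760 at 24 h, against 376 and 576 at 0 h (log2 change 1.94, SE 0.18, adjusted p = 4.9e-05), and APUM24, of ribosomal RNA processing, at 1961 and 1902 at 24 h, against 488 and 841 at 0 h (log2 change 1.59, SE 0.28, adjusted p = 0.0014). In each of these genes the 24 h libraries were close together and well above both 0 h libraries. At 0 h, 27 of the 29 genes were higher in library 2 than in library 1, with a median difference of 0.47, and the part of that gap in the result was not tested. The summed share of the list was 0.422% and 0.430% of reads at 24 h, against 0.176% and 0.236% at 0 h.

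Several wider groups taken from the annotation text held more rises than falls, with smaller median changes. The aminoacyl-tRNA synthetases had 12 of 51 higher (23.5%), near the 26.2% over all genes, and 6 lower, with 4 higher without 0 h library 1 and 7 without 24 h library 2. Of 150 cytosolic ribosomal protein genes, 67 rose and 4 fell, with a median change of 0.29, and the family took 3.28% and 3.74% of reads at 24 h, against 2.90% and 3.17% at 0 h. The ribosomal protein count was 24 without 0 h library 1, 26 without 24 h library 2 and 29 under quantile normalization. Of 189 genes annotated to the nucleolus 113 rose and 22 fell, with 74 rises without 0 h library 1 and 13 falls without 24 h library 1. Of 66 RNA helicase genes 34 rose and 7 fell, of 48 translation initiation factor genes 29 rose and 4 fell, and of 39 proteasome subunit genes 28 rose and 0 fell with a median of 0.36. PA200, a proteasome activator, was the one proteasome gene to change at least 2-fold, with 4957 and 3819 at 24 h, against 1672 and 1349 at 0 h (log2 change 1.53, SE 0.15, adjusted p = 5.7e-05). The pentatricopeptide repeat proteins, which edit and process organelle RNA, followed: 136 of 245 rose and 14 fell, with a median of 0.64, and the falls numbered 8 without 0 h library 2 or without 24 h library 1. AT1G74750 stood at 719 and 674 at 24 h, against 153 and 159.5 at 0 h (log2 change 2.15, SE 0.14, adjusted p = 1e-05), and MEF3, an editing factor of mitochondria, at 67.7 and 68.2 at 24 h, against 14.2 and 10.8 at 0 h (log2 change 2.36, SE 0.26, adjusted p = 0.00013). The site II motif TGGGCC was found in the upstream window of 55.3% of the cytosolic ribosomal protein genes and the telo-box AAACCCTAA in 8%, beside 16.2% and 2.06% of all genes. Of all genes with the site II motif 30.01% were higher and 20.2% lower at 24 h.

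RNA chaperone genes were higher as well, 12 of 17 with 1 fall and a median of 0.95. This stands beside 26.2% higher and 24.55% lower over all genes of the comparison. GRP7, which binds RNA and is both cold-induced and clock-regulated, stood at 108369 and 72114 at 24 h, against 3830 and 3514 at 0 h (log2 change 4.59, SE 0.40, adjusted p = 3.6e-05), and its paralog GRP8 at 12826 and 7779 at 24 h, against 4876 and 3630 at 0 h (log2 change 1.25, SE 0.40, adjusted p = 0.026). The mitochondrial glycine-rich protein gene GR-RBP2 stood at 4125 and 3701 at 24 h, against 1660 and 1549 at 0 h (log2 change 1.28, SE 0.09, adjusted p = 1.5e-05), and the nucleolar helicase gene PRH75 at 8533 and 7879 at 24 h, against 3256 and 4351 at 0 h (log2 change 1.12, SE 0.18, adjusted p = 0.00095). All 4 genes were higher in both 24 h libraries than in either 0 h library.

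**Figure D4:**
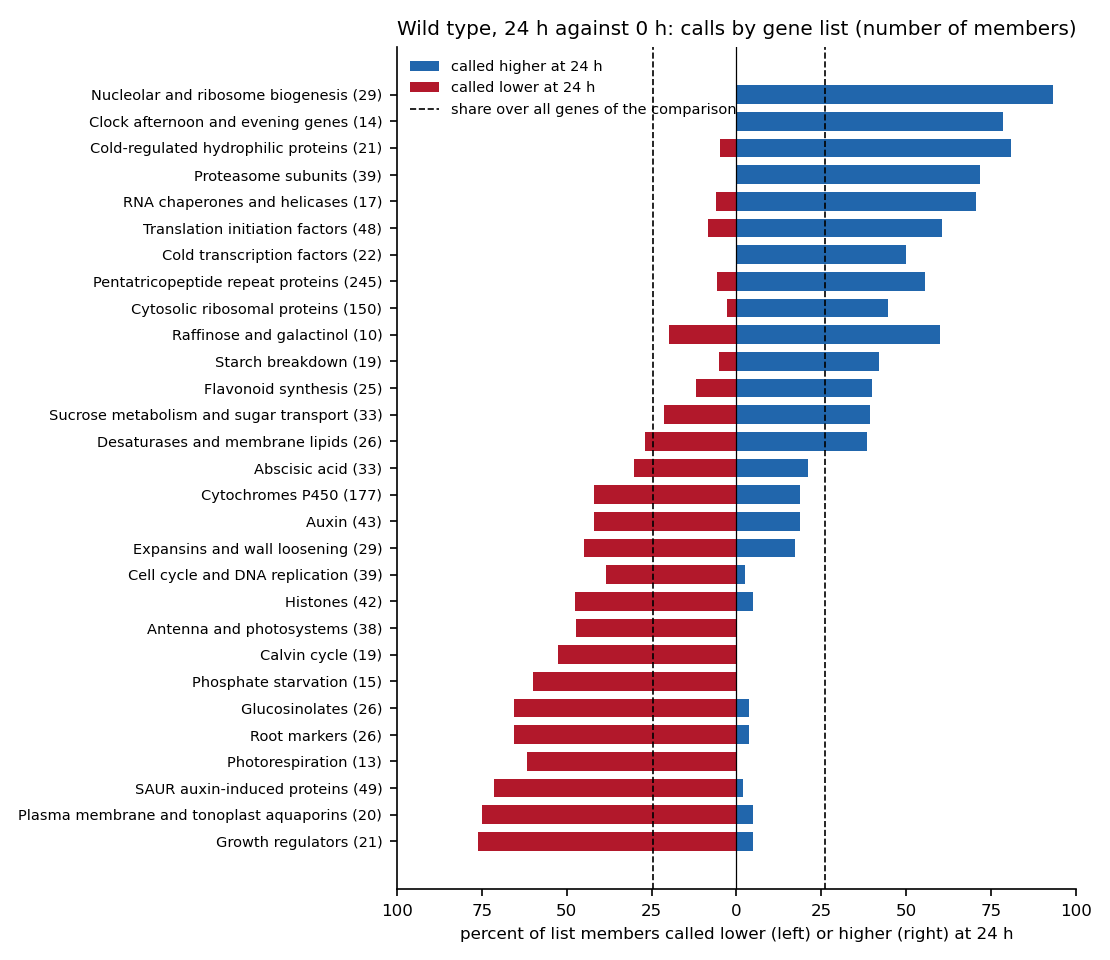
For a chosen part of the gene lists and families, the percent of members called higher (right, blue) and lower (left, red) at 24 h. The number of members stands in brackets, and dashed lines mark the shares over all 20103 genes. The heat shock, jasmonate and morning clock lists, among others, are not shown. Ribosome, cold-regulated and afternoon and evening clock lists extend to the right, and growth, aquaporin and photosynthesis lists to the left.

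Many photosynthesis genes were lower at 24 h. The counts stand beside 24.55% lower and 26.2% higher over all genes of the comparison. Of 38 antenna and photosystem genes 18 fell, 20 did not pass and 0 rose (median -0.48), of 19 Calvin cycle genes 10 fell and 0 rose (median -0.52), and of 13 photorespiration genes 8 fell and 0 rose (median -0.70). Wider families from the annotation text held a few rises: 25 of 67 genes annotated to photosynthesis fell and 5 rose, 16 of 39 photosystem subunit genes fell and 2 rose, and 6 of 19 light-harvesting genes fell and 1 rose. The antenna and photosystem genes took 8.41% and 9.08% of reads at 24 h, against 13.54% and 10.11% at 0 h, so that library 1 at 0 h stood apart from library 2 while both stayed above 24 h. Without 24 h library 1 the falls numbered 4 in the Calvin cycle and 5 in photorespiration, and without 0 h library 2 they numbered 4 in each. RCA, the Rubisco activase gene, lost more reads than any other gene with 79559 and 95617 at 24 h, against 186968 and 208569 at 0 h (log2 change -1.18, SE 0.18, adjusted p = 0.00071). LHCB4.2, a minor antenna gene of photosystem II, stood at 11471 and 15567 at 24 h, against 53012 and 37666 at 0 h (log2 change -1.74, SE 0.23, adjusted p = 0.0003), and PSAD-2, a subunit of photosystem I, at 4066 and 5562 at 24 h, against 23327 and 15934 at 0 h (log2 change -2.02, SE 0.25, adjusted p = 0.00022). HPR, the peroxisomal hydroxypyruvate reductase of photorespiration, stood at 5506 and 6320 at 24 h, against 15039 and 17420 at 0 h (log2 change -1.46, SE 0.16, adjusted p = 0.00011). Among the most abundant genes, RBCS1A stood at 243954 and 296539 at 24 h, against 269640 and 294951 at 0 h and LHCB1.1 at 180352 and 202168 at 24 h, against 166811 and 123294 at 0 h, with changes of -0.07 and 0.41 that did not pass (adjusted p = 0.78 and 0.11). LHCB1 and RBCS genes are close paralogs, so reads may have been split between them. Of 21 chlorophyll synthesis genes 9 fell and 1 rose: CHLM fell by 1.095, and the light-dependent reductase gene PORB rose, with 11476 and 13565 at 24 h, against 6570 and 1954 at 0 h. The chlorophyll falls numbered 5 without 24 h library 1.

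Several flavonoid genes were higher, while photoprotection calls went both ways. Of 15 photoprotection genes 5 rose (33.3%) and 4 fell (26.7%), near the 26.2% and 24.55% over all genes of the comparison. ELIP1 and ELIP2, early light-induced proteins that bind free chlorophyll under stress, stood at 11079 and 8889 at 24 h, against 610.5 and 1409 at 0 h (ELIP1) and 4769 and 4024 at 24 h, against 383 and 983 at 0 h (ELIP2), with changes of 3.42 and 2.83 (adjusted p = 0.00051 and 0.0053). NPQ1, the violaxanthin de-epoxidase, rose by 1.49. Of 25 flavonoid synthesis genes 10 rose and 3 fell, with a median of 0.81. The chalcone synthase gene TT4 stood at 30284 and 34414 at 24 h, against 6363 and 10894 at 0 h (log2 change 1.96, SE 0.46, adjusted p = 0.0064), the chalcone isomerase gene TT5 at 4219 and 4267 at 24 h, against 652 and 1295 at 0 h (log2 change 2.21, SE 0.48, adjusted p = 0.0043), and the activator gene MYB111 at 174 and 171 at 24 h, against 44.8 and 55.3 at 0 h (log2 change 1.77, SE 0.16, adjusted p = 5e-05). Genes of the anthocyanin steps went both ways: DFR, the dihydroflavonol reductase, was lower with 119.5 and 134 at 24 h, against 446 and 385 at 0 h (adjusted p = 0.00034), and TT19, a glutathione transferase of anthocyanin transport, was higher with 433 and 479.6 at 24 h, against 209 and 180.1 at 0 h (adjusted p = 0.0019). UGT78D3, a glycosyltransferase of flavonols, was among the largest rises with 454 and 318 at 24 h, against 1.092 and 9.77 at 0 h (log2 change 6.33, SE 0.93, adjusted p = 0.00054). Library 2 at 0 h was higher than library 1 for 18 of the 25 genes, with a median difference of 0.37. The 10 rises became 4 without 0 h library 1 and 6 without 24 h library 1. Light signalling genes were mixed, with 6 of 36 higher and 9 lower: the B-box genes BBX20 and BBX29 rose by 2.85 and 2.48, and the growth-promoting factors PIF4 and PIF1 fell by 1.79 and 1.72. The light signalling falls numbered 5 without 0 h library 1.

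**Figure D5:**
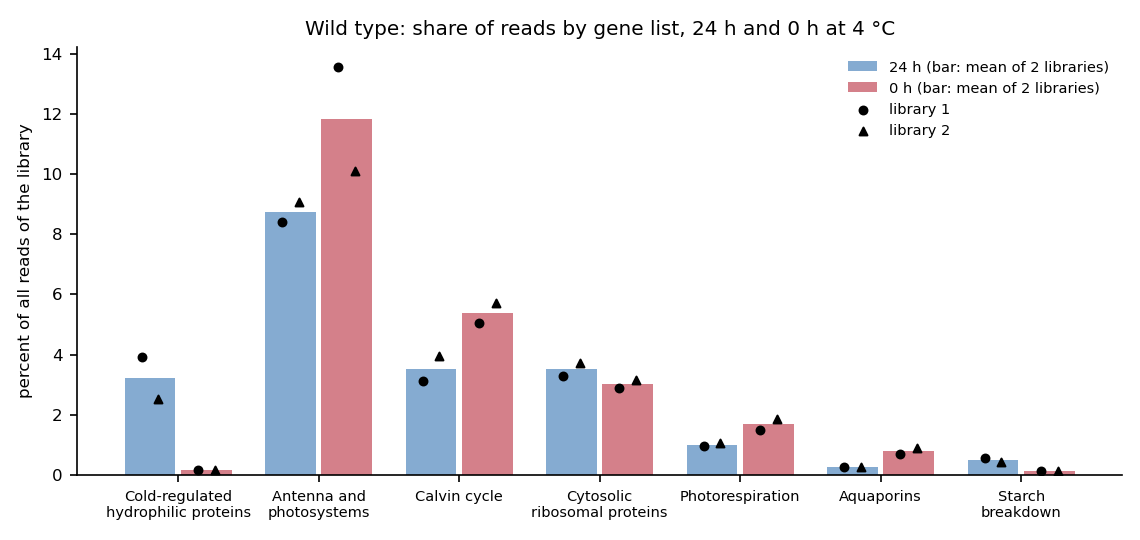
Percent of all reads of a library that fell on the members of 7 gene lists; bars are means of 2 libraries and points single libraries, with 24 h left of 0 h. Cold-regulated proteins took 3.91% and 2.53% at 24 h, against 0.162% and 0.156% at 0 h, and antenna and photosystem genes took less at 24 h than at 0 h.

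Most growth regulator, SAUR and aquaporin genes were lower at 24 h, beside 24.55% lower and 26.2% higher over all genes of the comparison. Of 21 growth regulator genes 16 fell and 1 rose, with a median change of -1.64, and of 49 SAUR genes, small auxin-induced genes of cell elongation, 35 fell and 1 rose, with a median of -1.50. SAUR24 stood at 12.7 and 19.5 at 24 h, against 112 and 100.9 at 0 h (log2 change -2.68, SE 0.30, adjusted p = 0.00012), AT5G18030 at 15.9 and 22.4 at 24 h, against 154 and 137 at 0 h (log2 change -2.88, SE 0.36, adjusted p = 0.00024), and BEE3, a growth-promoting bHLH factor, at 51.8 and 39.0 at 24 h, against 366 and 335 at 0 h (log2 change -2.93, SE 0.34, adjusted p = 0.00016). Many of these genes have few reads: the table holds 71 SAUR genes, of which 49 are among the 20103. Of 20 aquaporin genes 15 fell and 1 rose, with a median of -1.45. The tonoplast aquaporin gene DELTA-TIP stood at 1095 and 902 at 24 h, against 9484 and 11783 at 0 h (log2 change -3.41, SE 0.15, adjusted p = 1.3e-06) and TIP2;2 at 512 and 428 at 24 h, against 3307 and 3437 at 0 h (log2 change -2.85, SE 0.10, adjusted p = 6.2e-07), and the plasma membrane genes PIP1A at 1352 and 1253 at 24 h, against 7551 and 10294 at 0 h (log2 change -2.76, SE 0.20, adjusted p = 1.6e-05) and PIP2B at 765 and 920.1 at 24 h, against 5270 and 7191 at 0 h (log2 change -2.87, SE 0.24, adjusted p = 3e-05). The exception was PIP2;5, which was higher with 754 and 672 at 24 h, against 367 and 331 at 0 h (log2 change 1.03, SE 0.11, adjusted p = 0.0001). Together the aquaporin genes took 0.277% and 0.260% of reads at 24 h, against 0.710% and 0.897% at 0 h. PIP2;5 was named after its values were seen, as the only member that rose.

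Wall-loosening genes split into a larger falling and a smaller rising set, with 13 of 29 lower (44.8%) and 5 higher (17.2%). This and the counts below stand beside 24.55% lower and 26.2% higher over all genes of the comparison. EXPA8, an expansin, stood at 18.0 and 56.5 at 24 h, against 2818 and 1126 at 0 h (log2 change -5.75, SE 0.61, adjusted p = 9.8e-05), and EXPB1 at 23.3 and 44.8 at 24 h, against 458 and 455 at 0 h (log2 change -3.78, SE 0.33, adjusted p = 3.8e-05). The xyloglucan enzyme gene XTH15 was lower with 13.8 and 24.4 at 24 h, against 234 and 251 at 0 h (log2 change -3.65, SE 0.26, adjusted p = 1.5e-05), while XTH20 was higher with 1776 and 1616 at 24 h, against 148 and 89.0 at 0 h (log2 change 3.87, SE 0.34, adjusted p = 3.8e-05). In the cellulose and wall synthesis list 13 of 29 fell and 5 rose, and among the arabinogalactan protein genes 23 of 42 fell and 9 rose. AGP22 was among the largest falls with 9.52 and 2.92 at 24 h, against 175 and 122 at 0 h (log2 change -4.51, SE 0.41, adjusted p = 4.4e-05). The tubulin genes went both ways: 6 of 13 rose and 5 fell, with TUB9 at 7697 and 6115 at 24 h, against 1510 and 1584 at 0 h (log2 change 2.15, SE 0.27, adjusted p = 0.00023) and TUB8 at 448 and 496 at 24 h, against 1184 and 1132 at 0 h (log2 change -1.29, SE 0.10, adjusted p = 2.3e-05). In the cell cycle list 15 of 39 genes fell (38.5%) and 1 rose (median -0.35). The D-type cyclin gene CYCD3;1 fell by 1.07 and SIM, an inhibitor of division in trichomes, fell by 1.42. Of 42 histone genes 20 fell and 2 rose, with 10 falls without 0 h library 1 and 12 without 24 h library 1, the largest fall being that of the stress-linked linker histone gene HIS1-3 (8.46 and 11.7 at 24 h, against 105 and 79.2 at 0 h; log2 change -3.07, SE 0.26, adjusted p = 3.3e-05).

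Root markers were lower beside these lists. Over all genes of the comparison 24.55% were lower and 26.2% higher. Of 26 root marker genes 17 fell and 1 rose, with a median of -0.77, and their summed share of reads was 0.0288% and 0.0285% at 24 h, against 0.0415% and 0.0431% at 0 h. CASP5, a protein of the Casparian strip, had no read at 24 h, and CASP4 stood at 4.23 and 2.92 at 24 h, against 38.2 and 52.1 at 0 h (log2 change -3.33, SE 0.53, adjusted p = 0.00084). Both genes were below 10 in both 24 h libraries and entered through 0 h only, so the rule fixed their direction. The root regulators SCR and SHR did not pass (log2 changes -0.16 and 0.02, adjusted p = 0.5 and 0.91), and no other root marker was at 0. Of 16 leaf and photosynthetic markers 6 fell and 1 rose, and their share was 4.54% and 5.39% at 24 h, against 6.09% and 5.90% at 0 h. The part of a change in the share of root tissue in the falls of aquaporin, wall and growth genes was not tested. Both sets of markers were present at both times. Of 12 seed markers only 1 (OLEO4) was among the 20103 genes, and it did not pass, and the flower identity genes AP3, PI and AG stayed below 10 in all 4 libraries.

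Hormone lists held calls in both directions, and several stood near the 26.2% higher and 24.5% lower over all genes of the comparison. In the abscisic acid list 7 of 33 genes rose (21.2%) and 10 fell (30.3%): the factor gene ABF1 stood at 2819 and 1621 at 24 h, against 129 and 56.4 at 0 h (log2 change 4.63, SE 0.56, adjusted p = 0.0002), ABI5 at 221 and 159 at 24 h, against 12.01 and 32.5 at 0 h (log2 change 3.17, SE 0.46, adjusted p = 0.00051), and CYP707A1, which inactivates the hormone, at 1156 and 828 at 24 h, against 136 and 112 at 0 h (log2 change 2.98, SE 0.26, adjusted p = 3.9e-05), while the phosphatase gene HAI1 fell by 1.95. In the gibberellin list 4 of 24 rose and 8 fell. GASA6, induced by gibberellin, stood at 46.5 and 61.4 at 24 h, against 2945 and 885 at 0 h (log2 change -4.89, SE 0.63, adjusted p = 0.00027), the synthesis gene GA20OX1 fell by 1.59, and the inactivation gene GA2OX6 rose by 0.94. Auxin genes were lower in 18 of 43 cases and higher in 8, and the conjugation genes GH3.5 and GH3.6 fell by 1.61 and 1.55. Brassinosteroid genes were lower in 7 of 18 cases and higher in 1. BR6OX1 and ROT3, of brassinosteroid synthesis, fell by 2.43 and 1.25. Cytokinin genes were lower in 8 of 31 cases (25.8%) and higher in 4, and ethylene genes lower in 8 of 25 (32%) and higher in 5. Without 24 h library 1 the auxin list held 10 falls and 5 rises, and the ethylene list held 5 falls without 0 h library 1 or without 24 h library 2.

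Of 27 genes of salicylate and defence 11 rose and 2 fell, with 6 rises without 0 h library 2 and 5 without 24 h library 1. CBP60G and SARD1, activators of salicylate synthesis, stood at 679 and 467 at 24 h, against 190 and 158 at 0 h (CBP60G) and 289 and 214 at 24 h, against 56.8 and 69.4 at 0 h (SARD1), with changes of 1.69 and 1.97 (adjusted p = 0.00038 and 0.00024). PR5, a defence marker, stood at 1322 and 1264 at 24 h, against 407 and 277 at 0 h (log2 change 1.94, SE 0.22, adjusted p = 0.00014), and PR1 did not pass (log2 change 1.03, adjusted p = 0.093). Of 28 jasmonate genes 5 rose and 5 fell (17.9% each), below the 26.2% and 24.55% over all genes of the comparison. JAZ1, a repressor, rose by 1.63 and VSP2, a storage protein, fell by 1.62. Among glutathione transferases 19 of 50 rose and 10 fell. GSTU24 stood at 6086 and 5776 at 24 h, against 649.8 and 697 at 0 h (log2 change 3.14, SE 0.09, adjusted p = 2.8e-07), with replicates close together at both times.

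Of 26 glucosinolate genes 17 fell and 1 rose, with a median of -0.59. Several genes of the indole branch were among the falls. CYP79B3 stood at 183 and 205 at 24 h, against 1435 and 1248 at 0 h (log2 change -2.78, SE 0.09, adjusted p = 3.3e-07), CYP79B2 at 599.8 and 749.6 at 24 h, against 2347 and 1523 at 0 h (log2 change -1.49, SE 0.22, adjusted p = 0.00051), and their activator MYB34 at 188 and 276 at 24 h, against 691 and 717 at 0 h (log2 change -1.62, SE 0.19, adjusted p = 0.00015). The one rise of the list was MYB122, another regulator of that branch, with 23.3 and 22.4 at 24 h, against 6.55 and 6.51 at 0 h (log2 change 1.66, SE 0.34, adjusted p = 0.0034). MYB122 was below 10 in both 0 h libraries, so it entered through 24 h only and the rule fixed its direction. Of 177 cytochrome P450 genes 74 fell and 33 rose. In the phosphate starvation list 9 of 15 fell and 0 rose, with SRG3, a glycerophosphodiesterase gene induced by low phosphate, at 85.7 and 89.7 at 24 h, against 616 and 529.5 at 0 h (log2 change -2.69, SE 0.15, adjusted p = 4.6e-06). In the low-sulfur list 9 of 18 fell and 4 rose, with LSU1 at 61.4 and 27.3 at 24 h, against 414 and 264 at 0 h (log2 change -2.98, SE 0.45, adjusted p = 0.00062). The iron list held 5 falls and 4 rises among 24 genes, with 20.8% lower and thus below the 24.5% over all genes of the comparison. The ferric reductase genes FRO6 and FRO7 fell by 2.95 and 2.36, while FER3, a ferritin gene, stood at 3729 and 3717 at 24 h, against 1106 and 1070 at 0 h (log2 change 1.77, SE 0.07, adjusted p = 1.1e-06). Of 27 nitrogen genes 9 fell and 4 rose, among them NRT1.7, a nitrate transporter gene that moves nitrate out of old leaves, at 9911 and 4637 at 24 h, against 849 and 829 at 0 h (log2 change 3.01, SE 0.33, adjusted p = 0.00011). The nitrogen falls numbered 5 without 24 h library 1.

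A few genes had no read at one of the times. AT1G12805, annotated as a nucleotide binding protein, had no read in either 24 h library, against 96.1 and 96.6 at 0 h, which makes it at least 31.6-fold lower when 3 reads per library are taken as the floor (a mean of 3.05 at 24 h). AT5G04120, a phosphoglycerate mutase family gene, ATHB54, a homeobox gene, and CASP5 also had no read at 24 h and were at least 8.75-, 6.78- and 5.89-fold lower. ENODL5, an early nodulin-like gene, and AT5G55330, of an O-acyltransferase family, had no read at 0 h and were at least 4.21- and 3.41-fold higher. All of these genes without reads at 1 time entered through the other time only, so the rule itself fixed their direction. AT1G33055, an uncharacterized gene with the largest fall in the fit, stood at 1.06 and 0 at 24 h, against 199 and 181 at 0 h (log2 change -7.05, SE 0.52, adjusted p = 1.5e-05). FTM1, annotated in the stearoyl-ACP desaturase family, stood at 37.0 and 26.3 at 24 h, against 1228 and 1126 at 0 h (log2 change -5.19, SE 0.20, adjusted p = 7.6e-07). VHA-E3, a subunit of the vacuolar proton pump, stood at 40.2 and 37.0 at 24 h, against 406 and 404 at 0 h (log2 change -3.36, SE 0.10, adjusted p = 2.8e-07), and TBL36, of a family that acetylates wall polymers, at 104 and 93.6 at 24 h, against 711 and 765 at 0 h (log2 change -2.89, SE 0.09, adjusted p = 3.3e-07). In each of the last 3 genes the times were far apart and the replicates close together. AT1G15825 and AT1G15830, both among the 20 largest falls, overlap on opposite strands by 536 bases, so their counts may not be separate.

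Many of the 24 h changes were also changes from the 3 h level. Against 3 h, 4383 of the 20103 genes were higher at 24 h and 4314 lower, beside 21.3% and 21.5% of all genes tested. The 24 h libraries are shared by both comparisons, so the calls are set side by side and not taken as separate evidence. Time in cold and time of day may both differ between 24 h and 3 h, and they cannot be told apart here. Of the 5262 genes higher at 24 h than at 0 h, 3546 were also above 3 h, 140 were below 3 h and 1576 did not pass against 3 h. Of the 4935 lower genes, 3318 were also below 3 h and 29 were above it. Between 3 h and 0 h, 6.89% of all genes tested were higher and 3.21% lower. That comparison and the one at 24 h share the 0 h libraries.

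The nucleolar list had a median change of -0.04 at 3 h against 0 h, and 27 of its 29 genes were above 3 h at 24 h. The aquaporin list had a median change of 0.01 at 3 h, and 15 of 20 genes were below 3 h at 24 h. Cold-regulated protein genes had a median of 1.51 at 3 h, and 13 of 21 were above 3 h at 24 h. COR15A stood at 91302 and 71501 at 24 h, against 3322 and 3448 at 3 h, and GOLS3 at 18837 and 6747 at 24 h, against 905 and 603 at 3 h. Of the 22 cold transcription factor genes, 9 were lower at 24 h than at 3 h and 2 higher. Jasmonate genes had a median of 0.68 at 3 h and 19 of 28 were below 3 h at 24 h, and sugar-starvation genes a median of 0.64 at 3 h and 16 of 20 were below 3 h at 24 h. Of the single genes, UGT78D3 stood at 454 and 318 at 24 h, against 9.84 and 15.6 at 3 h, and JMJD5, a demethylase-like gene linked to the clock, at 571 and 451 at 24 h, against 52.5 and 25.4 at 3 h. AT4G27450, annotated as an aluminum induced protein, stood at 50.8 and 31.2 at 24 h, against 1401 and 1705 at 3 h.

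The same 24 h response was set beside that of cbfs-1. A test of the difference between the responses, cbfs-1 minus wild type, called 2 genes, which is 0.00968% of all genes tested (0.00484% higher and 0.00484% lower), and 945 of the 20103 genes (4.7%) had an unadjusted p below 0.05. KIN2 stood at 9369 and 9594 in cbfs-1 at 24 h and 717 and 651 in cbfs-1 at 0 h, and at 69314 and 58559 in wild type at 24 h and 1502 and 1688 in wild type at 0 h. Its rise was smaller in cbfs-1 by 1.53 on the log2 scale. CYP79B3 stood at 611 and 614 in cbfs-1 at 24 h and 1297 and 1373 in cbfs-1 at 0 h, and at 183 and 205 in wild type at 24 h and 1435 and 1248 in wild type at 0 h. Its fall was smaller in cbfs-1, with a difference of 1.66. Larger differences that did not pass were -4.87 for GOLS3 (adjusted p = 0.072), -3.36 for AT1G16850 (adjusted p = 0.072), -3.33 for COR15A (adjusted p = 0.11) and -2.85 for RD29A (adjusted p = 0.11), so a count of 2 does not show that other genes responded alike. The count moved between 0 and 84 with the method: DESeq2 on recovered reads called 84 genes and edgeR 2. It also changed when single libraries were left out. Such fits leave a lone library in a group, so they cannot show which library the count rests on.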

How the data were processed

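RNA-seq was made from seedlings of 6 groups with 2 libraries each. The authors deposited a table of 24616 genes by 12 libraries, whose values are a normalized signal: read counts divided by 1 size factor per library. Per the submitters' processing notes, the build was TAIR10 and the tools were DESeq2, HTSeq 0.6.0, TopHat2 2.1.0 and Cufflinks 2.2.1. Their settings, the strand setting and the handling of reads with several matches are unstated. Whole reads were recovered for all values within a tolerance of 0.001, which gave the read totals. Totals of all 12 libraries ranged from 16849042 to 22800552 reads.

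Groups came from the sample labels. Values were tested as log2(value + 1) with limma 3.58.1 (R 4.3.3) in 1 model of 6 group means with a mean-variance trend, over the 20666 genes with at least 10 in at least 2 of 12 libraries. Locus names, upstream windows and lengths came from RefSeq (TAIR10.1), which named 24385 of 24616 loci and left 231 unnamed. Python 3.11.15 with numpy 2.4.6, pandas 2.3.3, scipy 1.17.1 and matplotlib 3.10.9 made the tables and figures. Alternatives were edgeR 4.0.16 and DESeq2 1.42.0 on recovered reads, other pseudocounts, no filter, TMM and quantile scaling, a replicate block, only the libraries compared, and each library left out.

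The members and gene lists (54 lists and 72 annotation families, with 1260 of 1354 planned list entries matched) were chosen with earlier results of these data known, and the cytosolic ribosomal protein family was corrected by its annotation text after its values were seen. Named genes are CBF1 to CBF3, the 20 largest rises and falls with a mean of at least 100, the 10 largest gains and losses of reads, the 8 genes most unlike between replicates, the 8 smallest adjusted p-values, up to 6 called members per list, the 8 largest changes each way against 3 h and in the test of genotype, and members that did not pass where stated. KIN1, COR413-PM2 and PIP2;5 were added after their values were seen.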

Additional observations from a re-analysis of the deposited data

Results flagged for a closer look

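The 24 h cold response differed between cbfs-1 and wild type for KIN2 and CYP79B3, by the test of the difference itself in limma over all genes. For KIN2 the difference, cbfs-1 minus wild type, was -1.53 on the log2 scale, and for CYP79B3 it was 1.66. No gene was called with only the libraries compared. Leaving out 1 library leaves a lone library in its group, so such fits cannot show which library the calls rest on.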

How the results depend on the processing

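The calls at 24 h against 0 h kept their direction under all alternatives run, with 0 genes called in the opposite direction and 71.2% or more of the calls shared. Counts of higher and lower genes were 5097 and 4961 with edgeR, 4749 and 4429 with DESeq2, 4630 and 5170 with quantile normalization, and 4486 and 4107 with only the libraries compared. Leaving out 1 library gave 3782 to 4346 higher and 3641 to 4038 lower genes. The test of cbfs-1 against wild type was unstable: 2 genes became 84 with DESeq2, 75 with the replicate block and 0 with only the libraries compared, and between 0 and 53 when 1 library was left out. The cause was not tested. Of 1105 values of 85 named genes under 13 alternatives, 1079 stayed on their side of the threshold, 25 newly passed, 0 reversed and 1 no longer passed (DIP2, without wild-type 24 h replicate 1). Of 1638 list counts in each direction, 123 of the higher and 125 of the lower moved by more than 1.5 times. The labels do not say that a replicate number marks a shared batch. Deviations of same-numbered libraries correlated at 0.0758 between wild type at 24 h and 0 h, and at 0.108 between 24 h and 3 h. The correlation was 0.242 between cbfs-1 and wild type at 24 h, and 0.0428 to 0.565 over all pairs of groups. The source of these correlations was not tested. The replicate block called 6120 higher and 5642 lower genes. With 2 libraries per group, single-library differences weigh on every count, and leaving one out leaves a lone library that is assumed to vary like the other groups. Genes near 10 normalized reads lie close to the floor of 3 reads per library.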

Other observations

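Transcription factor and defence families outside the accounts above were mixed. They stand beside 26.2% higher and 24.55% lower over all genes of the comparison, with WRKY genes at 28.1% and 10.5%. Of 57 WRKY genes 16 were higher at 24 h and 6 lower, and of 68 NAC genes 21 were higher and 10 lower, with 5 or 6 lower when 0 h replicate 2 or either 24 h replicate was left out. Of 100 bHLH genes 18 were higher and 31 lower. The 128 NLR resistance genes held 27 higher and 19 lower, and the higher calls numbered 15 and 16 without 0 h replicate 2 and without 24 h replicate 1, with 11 lower without 0 h replicate 1. Receptor-like kinases were lower in 85 of 289 cases and higher in 54, with 54 lower without 24 h replicate 1 and 33 higher without it. Peroxidases were lower in 26 of 57 cases and higher in 11, with 7 higher without 24 h replicate 1.

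Several genes differed widely between the 2 libraries of a single time. PDF1.2, a plant defensin, stood at 91.0 and 77.0 at 24 h, against 269.7 and 16.3 at 0 h. The uncharacterized AT4G01985 stood at 1018 and 163 at 24 h, against 24.0 and 11.9 at 0 h, and AT3G17050 at 443 and 63.4 at 24 h, against 521 and 578 at 0 h. DIP2, annotated as an E3 ubiquitin-protein ligase, stood at 252 and 64.3 at 24 h, against 19.7 and 27.1 at 0 h.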
